A study of Homo sapiens with 3 samples.

Results

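The integrin and laminin genes were followed in RNA-seq data from HepG2 cells, a human hepatocellular carcinoma line. The genes described have a symbol that names an integrin alpha or beta subunit or a laminin alpha, beta or gamma chain, and are 37 of the 25270 gene rows in the deposited files. The set holds 18 integrin alpha, 8 integrin beta, 5 laminin alpha, 4 laminin beta and 2 laminin gamma genes, and the rule that picks them reads symbols alone. Of the 3 libraries, the first was made from untreated parental HepG2 cells and the second from HepG2/metR cells. The third came from HepG2/metR cells after 24 h in 40 mM oxamate, which inhibits lactate dehydrogenase. HepG2/metR is the population of HepG2 cells that survived metformin for more than 5 months, and it was made as a model of cells with high glycolysis and lactate output. Its culture shares the HepG2 label and the same growth medium with the parental cells, and both HepG2/metR libraries carry the metformin history. Whether metformin was still present when RNA was taken is not given in the sources used here.

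There was 1 library per group (n = 1), so no difference below has a replicate check, an error or a p-value, and the lists that follow are described by counts and medians alone. Levels are in FPKM (fragments mapped to a transcript, scaled to its length and to the mapped total of the library), which allows levels of different genes to be set side by side within a library. Changes are differences of log2(FPKM + 1), a scale that understates the change of genes under about 1 FPKM. A gene was called when it had a mean of at least 1 FPKM over the 3 libraries and differed at least 2-fold between HepG2/metR and parental cells, or at least 1.5-fold between oxamate-treated and untreated HepG2/metR cells. How many reads lie behind each library is unknown. The FPKM values summed to 562382 in the parental, 534646 in the HepG2/metR and 473773 in the oxamate library, and 11356 to 11649 genes reached 1 FPKM in each. The libraries differed at the markers of their labelled cell type. All 8 hepatocyte markers examined lay between 68.7 and 11976 FPKM in parental cells, while 6 of the 8 were under 1 FPKM in HepG2/metR cells and again 6 of the 8 in the oxamate library. The liver label therefore went with its markers in the parental library only, and the part of these differences in the integrin and laminin values was not tested. In bulk RNA, fewer cells of a type and less RNA per cell cannot be told apart. The HepG2 origin of the HepG2/metR culture was taken from its label and was not tested here.

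Integrins are cell-surface receptors made of an alpha and a beta subunit, and they join the extracellular matrix to the actin cytoskeleton. The alpha subunit largely sets the ligand: laminins, collagens, or proteins with an RGD motif such as fibronectin and vitronectin. Laminins are secreted trimers of an alpha, a beta and a gamma chain that form the core network of basement membranes, and the numbers in a trimer's name give its chains in that order. Normal hepatocytes sit in a matrix with little laminin, whereas epithelia that rest on a basement membrane attach through laminin-binding integrins.

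Several integrin alpha subunits and laminin chains of HepG2/metR cells differed from those of parental cells, while ITGB1, LAMB1, LAMB2 and LAMC1 stayed within 2-fold. Of the 37 genes, 18 passed the filter on low values. Among them 6 were called higher in HepG2/metR, namely ITGA3, ITGA4, ITGA5, ITGA6, LAMA1 and LAMB3, and 3 were called lower, namely ITGA1, ITGA2 and LAMA5. Over all 12210 genes that passed the filter, 16.6% were called higher and 17.6% lower. For the 18 genes the median log2 change was -0.12, against 0.015 for all genes that passed, and their median absolute change was 0.98 against 0.65. A gene could pass the filter through the library in which it was high, so these counts describe the 18 genes and not all 37. With oxamate 1 of the 18 was called higher, ITGB2, against a background of 4.30%, and 0 were called lower, against 3.82%. The study's own selection took genes past both thresholds, higher in HepG2/metR and lower with oxamate. Of the integrin and laminin genes 0 had that pattern, against 0.958% of all genes that passed. By literature mining, the paper places integrin and microtubule pathways first in enrichment among its selected genes. Such a pathway is a different set from the subunit genes counted here, and it was not examined.

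**Figure D1:**
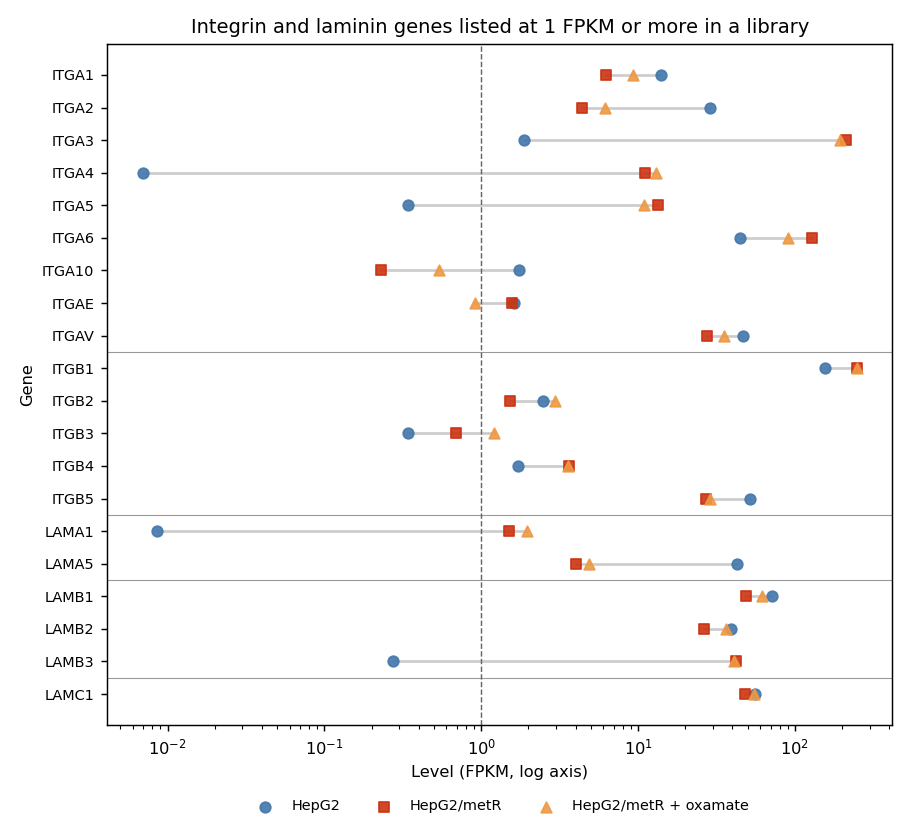
Levels of the 20 integrin and laminin genes listed at 1 FPKM or more in at least 1 library, in FPKM on a log axis, with 1 point per library and a dashed line at 1 FPKM. The points for HepG2/metR with and without oxamate lie close together for most genes, and those for parental HepG2 lie far to the left for ITGA3, ITGA4, ITGA5, LAMA1 and LAMB3 and to the right for ITGA2 and LAMA5.

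Promoters of called genes are shown here so that the genes that differed can be compared at their starts. They are the 4 with the largest changes in HepG2/metR among the 26 of the 37 genes matched by symbol in the RefSeq promoter table. ITGA3 and LAMA1, both called higher, were not matched, so their promoters were not searched. Each run is the 250 bases before the annotated start, on the gene's own strand, in GRCh38.p14 coordinates. The RNA-seq files carry the label hg19, and no position was carried between the builds. LAMB3 (chr1:209652426-209652675, minus strand), ITGA4 (chr2:181457136-181457385, plus strand) and ITGA5 (chr12:54419267-54419516, minus strand) were higher in HepG2/metR, and LAMA5 (chr20:62367313-62367562, minus strand) was lower. Capitals mark matches, on either strand, to GGGCGG (the GC box) or GGAATG (the core bound by TEAD factors). TGANTCA (AP-1) and TTTCGCGC or TTTGGCGC (E2F) were also searched on both strands and had no match in these windows.
LAMB3: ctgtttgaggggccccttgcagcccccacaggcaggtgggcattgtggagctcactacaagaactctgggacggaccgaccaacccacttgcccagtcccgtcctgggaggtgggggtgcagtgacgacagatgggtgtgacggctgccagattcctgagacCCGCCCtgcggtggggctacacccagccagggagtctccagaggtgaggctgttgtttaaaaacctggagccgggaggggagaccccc
ITGA4: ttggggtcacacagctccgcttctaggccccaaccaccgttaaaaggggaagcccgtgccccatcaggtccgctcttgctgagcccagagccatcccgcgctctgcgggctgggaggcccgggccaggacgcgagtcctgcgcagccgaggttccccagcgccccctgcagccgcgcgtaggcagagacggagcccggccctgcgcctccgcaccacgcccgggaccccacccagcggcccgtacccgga
ITGA5: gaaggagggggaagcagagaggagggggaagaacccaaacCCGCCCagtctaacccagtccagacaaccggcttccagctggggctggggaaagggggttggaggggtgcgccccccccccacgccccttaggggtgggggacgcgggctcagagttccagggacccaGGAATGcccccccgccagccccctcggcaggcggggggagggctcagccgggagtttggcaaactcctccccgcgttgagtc
LAMA5: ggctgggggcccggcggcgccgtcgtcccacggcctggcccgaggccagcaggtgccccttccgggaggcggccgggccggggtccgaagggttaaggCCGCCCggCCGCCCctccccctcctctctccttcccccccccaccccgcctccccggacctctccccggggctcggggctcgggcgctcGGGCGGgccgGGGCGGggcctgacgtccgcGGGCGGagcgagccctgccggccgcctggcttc

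The GC box lay 5 times in the LAMA5 window, once each in those of LAMB3 and ITGA5, and not in that of ITGA4. The TEAD core was found once, 82 bases before the ITGA5 start. By composition the window of LAMA5 had 82.8% G and C, that of ITGA4 72.8%, that of ITGA5 70.0% and that of LAMB3 64.0%, against a median of 58.0% over 27305 promoters. The ratio of observed to expected CpG was 0.77 for ITGA4 and 0.75 for LAMA5, and lower for ITGA5 at 0.39 and LAMB3 at 0.31, against a median of 0.56. Among the 26 genes matched, 13 had a GC box and 4 the TEAD core, and 42.3% and 11.9% of all promoters had them. The AP-1 sequence was in 1 of the 26, LAMA3, which had it at 2 places, and 6.60% of all promoters held it. No E2F sequence was found in the 26, and 0.996% of all promoters held one. LAMB3 has 3 starts in the table, of which the first was used.

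Laminin-binding alpha subunits were the most abundant alpha subunits in HepG2/metR cells. ITGA3, whose product pairs with ITGB1 and binds laminins such as laminin-511, was listed at 1.88 FPKM in parental cells, 212 in HepG2/metR and 194 after oxamate. Its log2 change of 6.21, a 113-fold difference in FPKM, was the largest on the log2(FPKM + 1) scale among the 37 genes. In plain FPKM the folds of ITGA4 (1606), LAMA1 (174) and LAMB3 (154) were larger, from parental levels under 1 FPKM. ITGA3 was at or above 14.5% of the genes that passed the filter in parental cells, and at or above 97.1% of them in HepG2/metR.

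ITGA6, which forms laminin receptors with either ITGB1 or ITGB4, was already high in parental cells at 45.0 FPKM. It was listed at 129 FPKM in HepG2/metR and 90.8 with oxamate, a log2 change of 1.501 in the first comparison. The ratio of ITGA3 to ITGA6 was 0.042 in parental cells, 1.64 in HepG2/metR and 2.14 with oxamate, so the more abundant of the laminin-binding subunits was ITGA6 in parental cells and ITGA3 in the other libraries. ITGA7, the laminin receptor subunit of muscle, stayed at 0.200 to 0.327 FPKM. Together these 3 genes gave 33.5% of the summed alpha subunit level in parental cells, 84.0% in HepG2/metR and 78.8% with oxamate.

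Of the 4 collagen-binding subunits, ITGA1 and ITGA2 passed the filter and both were called lower in HepG2/metR, against 17.6% of all genes. ITGA2, a receptor for fibrillar collagen, was listed at 28.6 FPKM in parental cells, 4.37 in HepG2/metR and 6.20 after oxamate, a log2 change of -2.47. ITGA1, which prefers the network collagen of basement membranes, was at 14.1, 6.26 and 9.28 FPKM in the same order, and its change of -1.06 only just passed the threshold. It did not pass when the library totals were made equal, at -0.99, or with upper-quartile scaling, at -0.92.

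ITGA10, a collagen receptor of cartilage, was at 1.73, 0.230 and 0.536 FPKM, and was not called because its mean was under 1 FPKM. ITGA11 was at 0, 0.0280 and 0.130 FPKM. The 4 collagen-binding genes summed to 44.5 FPKM in parental cells, 31.6% of the alpha subunit level, to 10.9 FPKM or 2.68% in HepG2/metR, and to 16.1 FPKM or 4.46% with oxamate. ITGA1 and ITGA2 are neighbours on their chromosome, and PELO is the only coding gene that starts between their starts. PELO, a ribosome rescue factor whose gene overlaps ITGA1, was level at 14.5, 15.5 and 15.6 FPKM, and the files do not say whether strand was used to separate overlapping genes.

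The subunits that bind RGD-containing ligands differed in direction. ITGA5, which with ITGB1 forms the main fibronectin receptor, was listed at 0.343 FPKM in parental cells, 13.4 in HepG2/metR and 10.95 after oxamate, a log2 change of 3.42. ITGAV, the shared alpha subunit of the vitronectin receptors, was the highest alpha subunit in parental cells at 46.7 FPKM. It was at 27.4 FPKM in HepG2/metR and 35.2 with oxamate, and its change of -0.75 was not called. The other RGD-binding subunits were near the bottom of the range, with ITGA2B of platelets at 0.194 FPKM or less and ITGA8 at 0.00605 FPKM or less.

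ITGA4, known from leukocytes, where it binds VCAM1 and fibronectin, was listed at 0.00694 FPKM in parental cells, 11.1 in HepG2/metR and 13.1 after oxamate, a log2 change of 3.59. The leukocyte marker PTPRC (CD45) was at 0.0430, 0.0142 and 0.0139 FPKM in these libraries, so this level of ITGA4 came without it. ITGA9, its closest relative, was at 0.0434 FPKM or less. ITGAE, which pairs with ITGB7 and binds E-cadherin, was at 1.61, 1.57 and 0.910 FPKM and was not called in either comparison. It overlaps GSG2, at 3.92, 5.85 and 5.67 FPKM, and P2RX5, at 1.47, 4.70 and 3.83 FPKM. Their part in the ITGAE value was not tested. The leukocyte subunits ITGAL, ITGAM and ITGAX were at 0.266 FPKM or less, and ITGAD was listed at 0 in all 3 libraries.

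Of the 8 beta subunit genes 4 passed the filter, and 0 of them were called in HepG2/metR. Over all genes that passed, 16.6% were called higher and 17.6% lower, and 4 genes are too few to differ clearly from that. ITGB1, the common partner of 12 alpha subunits, was the highest integrin gene in every library, at 156 FPKM in parental cells, 248 in HepG2/metR and 248 after oxamate. Its log2 change in HepG2/metR was 0.67, which was not called. The summed level of its 12 alpha partners was 139 FPKM in parental cells, 404 in HepG2/metR and 361 with oxamate, so the ratio of ITGB1 to its partners was 1.12, 0.614 and 0.687. As mRNA levels go, ITGB1 exceeded the sum of its alpha partners in parental cells only.

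ITGB5, which joins ITGAV to bind vitronectin, was at 51.9, 27.2 and 28.8 FPKM, with a change of -0.91 in HepG2/metR that was not called. ITGB4, whose long cytoplasmic tail binds plectin in hemidesmosomes, was at 1.71, 3.64 and 3.57 FPKM. Its change of 0.77 was under the threshold, and it passed at 1.05 with a pseudocount of 0.1. ITGA6 exceeded ITGB4 26.2-fold in parental, 35.5-fold in HepG2/metR and 25.4-fold in oxamate-treated cells. ITGB4 overlaps GALK1, a galactose kinase gene that was at 25.1, 13.5 and 14.2 FPKM.

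ITGB2, the beta subunit of leukocyte integrins, was at 2.46 FPKM in parental cells, 1.53 in HepG2/metR and 2.98 after oxamate. It was the only gene of the 37 called with oxamate, at 0.65, a 1.94-fold difference in FPKM between low levels. ITGB2-AS1, an antisense RNA gene that overlaps it, was at 0.240, 0.421 and 0.259 FPKM. The 7 leukocyte markers together summed to 12.0, 3.44 and 2.16 FPKM, mostly from CORO1A, with CD3E listed at 0 in the parental and HepG2/metR libraries, and their part in the ITGB2 value was not tested. ITGB3, the beta subunit of the platelet and vitronectin receptors, was at 0.339, 0.689 and 1.21 FPKM. ITGB6 and ITGB7 stayed at 0.139 FPKM or less. ITGB8, which with ITGAV activates latent TGF-beta, was at 0.0475, 0.0901 and 0.486 FPKM.

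Among the laminins, LAMA5 accounted for nearly all of the alpha chain level of parental cells and was lower in HepG2/metR. LAMA5 encodes the alpha chain of many adult basement membranes and was listed at 42.6 FPKM in parental cells, 4.01 in HepG2/metR and 4.90 after oxamate. Its log2 change was -3.12, a 10.6-fold difference in FPKM. LAMA1, the alpha chain of the early embryonic basement membrane, was at 0.00861 FPKM in parental cells, 1.499 in HepG2/metR and 1.95 after oxamate, and its change of 1.31 was called.

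LAMA3, the alpha chain of epithelial laminins, was at 0.784, 0.441 and 0.681 FPKM, and the file gives a single value for its short and long forms. LAMA2, the chain of muscle basement membrane, was at 0.131 FPKM or less, and LAMA4, known from blood vessels, at 0.0114 FPKM or less. The 5 alpha chain genes summed to 43.5 FPKM in parental cells, 6.08 in HepG2/metR and 7.67 with oxamate. LAMA5 made up 98.1% of that sum in parental cells, 65.9% in HepG2/metR and 63.9% with oxamate.

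Of the laminin beta chains LAMB3 was called higher in HepG2/metR and the others were not called. LAMB3, a beta chain of skin and other epithelia, was at 0.275 FPKM in parental cells, 42.4 in HepG2/metR and 40.8 after oxamate, a log2 change of 5.09. LAMB1, the most widely used beta chain, was at 71.3, 48.9 and 61.7 FPKM. LAMB2, found at the kidney filter and the neuromuscular junction, was at 39.2, 26.4 and 36.4 FPKM. Their changes in HepG2/metR were -0.53 and -0.55 and were not called. LAMB4 was at 0.0119 FPKM or less. With oxamate LAMB2 differed by 0.45, or by 0.62 and past the threshold when the library totals were made equal.

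LAMC1, the gamma chain that most trimers share, had the smallest change in HepG2/metR among the laminin genes that passed the filter, -0.21, at 55.9, 48.1 and 54.6 FPKM. LAMC3 was at 0.159 to 0.368 FPKM.

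Ratios between chains that share a trimer also differed between the libraries. LAMC1 exceeded LAMA5 1.31-fold in parental cells, 12.0-fold in HepG2/metR and 11.1-fold with oxamate. LAMB3 was at 0.351 times the level of LAMA3 in parental cells, and exceeded it 96.1-fold in HepG2/metR and 59.95-fold with oxamate.

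Which receptors and trimers these levels could allow was read from the scarcest subunit of each of 24 known integrin pairs and 13 known laminin trimers. This describes mRNA and is no measure of protein or assembly. A subunit that several pairs or trimers share was counted in full for each, so their levels cannot be added. Both subunits reached 1 FPKM for 8 pairs in parental cells, 9 in HepG2/metR and 10 with oxamate, and 7 pairs did so in all 3 libraries. The pairs of ITGB1 with ITGA4 and with ITGA5 were the 2 gained in HepG2/metR, with scarcest levels of 11.1 and 13.4 FPKM, and the pair with ITGA10 was the 1 lost.

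In parental cells the pairs with the highest scarcest subunit were ITGAV with ITGB1 and ITGAV with ITGB5, both set by ITGAV at 46.7 FPKM, followed by ITGA6 with ITGB1 at 45.0 FPKM. In HepG2/metR cells they were ITGA3 with ITGB1 at 212 FPKM and ITGA6 with ITGB1 at 129 FPKM, with ITGAV and ITGB1 next at 27.4 FPKM. These pairs share ITGB1, which was at 248 FPKM there, below the 404 FPKM summed over its 12 alpha partners. ITGA6 with ITGB4, the hemidesmosome receptor, was limited by ITGB4 in every library. ITGAV with ITGB3 reached 1 FPKM in the oxamate library only, at 1.21 against 0.689 FPKM without oxamate. The 4 pairs of ITGB2 were limited by their alpha subunits, at 0.266 FPKM or less, so ITGB2 had no alpha partner at 1 FPKM.

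All 3 chains reached 1 FPKM for 2 of the 13 trimers in parental cells, laminin-511 and laminin-521. In HepG2/metR cells and with oxamate 4 did so, with laminin-111 and laminin-121 in addition. The scarcest chain of laminin-511 was LAMA5 in each library, at 42.6, 4.01 and 4.90 FPKM, so this trimer was still the one with the most mRNA for its scarcest chain in HepG2/metR, level with laminin-521. Laminin-111 was limited by LAMA1 at 1.499 FPKM in HepG2/metR. An alpha chain was the scarcest for 12 of the 13 trimers in HepG2/metR, and LAMC3 for the other.

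With oxamate the integrin and laminin genes stayed close to their HepG2/metR levels. This comparison shares the HepG2/metR library with the first, so an error in that library enters both. The log2 changes of the 18 genes with oxamate lay between -0.50 and 0.65, and their median absolute change was 0.25 against 0.21 for all genes that passed the filter. ITGA6 had the lowest value, -0.50, or 29.7% less FPKM, which was short of the threshold. ITGA5 was at -0.26, ITGA3 at -0.12 and LAMB3 at -0.05. ITGAE, at -0.43, passed the threshold with a pseudocount of 0.1, at -0.72. The genes lower in HepG2/metR than in parental cells had changes of 0.50 for ITGA1, 0.42 for ITGA2 and 0.24 for LAMA5, none of which was called.

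Of the 6 laminin genes that passed the filter, 5 had a positive value with oxamate and LAMB3 a negative one, and 0 were called. Of all 12210 genes that passed, 6461 had a positive value. The median of the 6 laminin genes was 0.24, and that of the 12 integrin genes was 0.04, against 0.02 for all genes. Making the library totals equal, which shifts the median of all genes by 0.15 with oxamate, made 3 of the 37 genes pass as higher, ITGA1, ITGB2 and LAMB2, while the background became 9.78% higher and 1.57% lower. The remaining 17 genes never reached 1 FPKM. They are ITGA2B, ITGA7, ITGA8, ITGA9, ITGA11, ITGAD, ITGAL, ITGAM, ITGAX, ITGB6, ITGB7, ITGB8, LAMA2, LAMA3, LAMA4, LAMB4 and LAMC3, and their highest value was that of LAMA3 in parental cells, 0.784 FPKM.

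The cytoplasmic partners of integrins were examined as a list of 25 adaptor and focal adhesion genes, of which 22 passed the filter. In HepG2/metR 6 were called higher and 2 lower, against 16.6% and 17.6% of all genes that passed. With oxamate 0 were called in either direction, against 4.30% higher and 3.82% lower. Their median log2 changes were 0.28 and 0.07, and those of all genes 0.015 and 0.02. TLN1, the talin that activates integrins, was at 32.8, 41.1 and 46.8 FPKM, and the kinase PTK2 at 19.1, 23.0 and 21.3 FPKM. ILK, a scaffold at the integrin tail, was at 46.6, 75.8 and 73.7 FPKM, a log2 change of 0.69 in HepG2/metR, and none of these 3 was called. The scaffold PXN was higher in HepG2/metR, at 73.8 against 19.1 FPKM, and remained at 68.3 FPKM with oxamate. FERMT1, the kindlin of epithelia, had the largest change of the list, from 23.2 to 1.27 FPKM. PARVB and TGFB1I1 were higher, at 5.39 against 0.0617 and at 9.63 against 1.47 FPKM.

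Among 21 integrin ligands other than laminins and collagens, 14 passed the filter, and in HepG2/metR 3 were called higher and 8 lower, against the same 16.6% and 17.6%. Their median log2 changes were -2.33 in HepG2/metR and 0.10 with oxamate. Several of those lower are proteins that liver cells secrete. FGG, FGA and SPP1 had the largest changes, with FGG and FGA listed at 0 in HepG2/metR and SPP1 at 10.8 against 1012 FPKM. FGB was the next largest, at 1.30 against 163 FPKM. The 3 higher ligands were THBS1, a thrombospondin, at 762 against 57.4 FPKM, the matricellular CYR61 at 679.8 against 9.86 FPKM, and MFGE8 at 47.7 against 8.89 FPKM. VCAM1, the cell-surface ligand of ITGA4, was listed at 0 in parental and HepG2/metR cells and at 0.0121 FPKM with oxamate. FN1, the fibronectin that ITGA5 binds, was at 1503 FPKM in parental cells, 45.7 in HepG2/metR and 93.7 after oxamate, so ITGA5 and its ligand differed in opposite directions. With oxamate FN1 was the 1 ligand called, higher by 1.02, against 4.30% of all genes.

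Of 18 basement membrane partners of laminins, 14 passed the filter, and 7 were called higher and 3 lower in HepG2/metR, against 16.6% and 17.6% of all genes. Their median log2 changes were 0.50 in HepG2/metR and 0.03 with oxamate. The largest changes were in COL4A2, LOXL2, COL4A1 and PXDN. The collagen IV genes COL4A1 and COL4A2 were at 52.7 and 104 FPKM in HepG2/metR against 0.0386 and 0.155 FPKM in parental cells. The matrix cross-linking enzymes LOXL2 and PXDN were at 118 and 28.7 FPKM, against 1.21 FPKM for LOXL2 and a PXDN value listed at 0. NID1, which links laminin to collagen IV, was lower, at 9.20 against 60.9 FPKM. With oxamate 2 of the list were called higher, COL7A1 by 0.73 and COL4A5 by 0.62, and 0 lower, against 4.30% and 3.82%.

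Of 14 laminin receptors other than integrins and hemidesmosome genes, 12 passed the filter, with 3 called higher and 3 lower in HepG2/metR, against 16.6% and 17.6% of all genes, and 2 called higher with oxamate, against 4.30%. Their median log2 changes were 0.57 and 0.15. BCAM, a receptor for the LAMA5 chain, was at 95.0 FPKM in parental cells, 4.94 in HepG2/metR and 8.79 after oxamate. The syndecan SDC2 was at 92.9, 3.87 and 6.75 FPKM. PLEC, the plectin that ITGB4 binds, was at 10.97, 29.98 and 39.2 FPKM, and CD151, a tetraspanin that associates with ITGA3 and ITGA6, at 130.2, 321 and 224 FPKM. DAG1, which encodes dystroglycan, was at 60.7, 42.2 and 38.8 FPKM and was not called.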

How the data were processed

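The authors deposited log2 values, 1 per gene symbol, of 3 RNA-seq libraries of HepG2 and HepG2/metR cells. Their form, log2(FPKM + 1), was read from the values: back-transformed, they have 6 significant digits. The submitters' processing notes name STAR 2.5.1b, Cufflinks 2.2.1, FastQC 0.11.5 and hg19; annotation and strand setting are not given in the sources used here. No deposited column was left out, and 28 symbols turned into dates by spreadsheet software were not used by name. Values were used without rescaling, and changes are differences of the deposited log2 values. No test was possible with 1 library per group. As read depth is unknown, intervals are not given.

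Members and lists were chosen with earlier results of these data known. A gene is not reported here, and totals and trimers that need it were left out. Every other integrin or laminin gene at 1 FPKM or more in a library is named with its values. From other lists, up to 4 genes with the largest changes are named, plus 4 fixed adaptors; genes that overlap a member, marker genes, and THBS1, CYR61, MFGE8, VCAM1, NID1 and DAG1 were chosen after their values were seen. The calling step was run on simulated libraries with set changes well past the threshold. That checks its arithmetic and gives no error rate for the calls reported here. All 37 symbols, and TNS2 under its older symbol TENC1, matched the RefSeq gene table (GRCh38.p14), used for names and neighbours only. Promoter sequences are from RefSeq, and the first bases after the start of the 4 printed were found in GENCODE release 29 transcripts. Alternatives were a pseudocount of 0.1, no pseudocount, a mean of at least 5 FPKM, no filter, 3 scalings, other fold and detection levels, and, added after seeing the data, a background without small RNA genes. Python 3.11.15, numpy 2.4.6, pandas 2.3.3 and matplotlib 3.10.9 were used.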

Additional observations from a re-analysis of the deposited data

How the results depend on the processing

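The 6 genes called higher in HepG2/metR numbered 5 to 8 under the alternatives, and the 3 called lower numbered 2 to 5. The share of all genes called moved as well. The 8 higher and 5 lower came with a 1.5-fold threshold, where 26.7% of all genes were called higher and 27.0% lower. The 5 higher came at a mean of at least 5 FPKM, against 13.9%. The 2 lower came with upper-quartile and same-total scaling, against 15.3% and 16.2%. With oxamate, the gene called higher became 0 at a mean of at least 5 FPKM or a 2-fold threshold, against 3.02% and 0.541%. The count became 3 when the library totals were made equal, against 9.78%. The count called lower with oxamate became 1, ITGAE, with a pseudocount of 0.1 or none, against 4.97% and 5.09%. The count of genes higher in HepG2/metR and lower with oxamate was 0 under all alternatives, against 0.287% to 1.60% of all genes. The median change in HepG2/metR, -0.12, was -0.125 with a pseudocount of 0.1, -0.126 with none, -0.37 at a mean of at least 5 FPKM, -0.134 with median-of-ratios scaling and -0.059 with same-total scaling. It turned positive with no filter (0.015) and with upper-quartile scaling (0.0043), which moved the median of all genes by 0.14. The median with oxamate, 0.196, was 0.205 with a pseudocount of 0.1, 0.206 with none, 0.0497 with no filter, and 0.174, 0.239 and 0.35 with median-of-ratios, upper-quartile and same-total scaling. At a detection level of 5 FPKM, 5, 7 and 8 integrin pairs were counted in parental, HepG2/metR and oxamate-treated cells. The laminin trimers then numbered 2, 0 and 0 in the same order. At 0.5 FPKM the pairs numbered 8, 10 and 11, and the trimers 4, 4 and 6. The higher trimer count in HepG2/metR than in parental cells therefore held at 1 FPKM only. The fewer genes tested account for the change at a mean of at least 5 FPKM, and the cause of the others was not tested. No paired analysis was possible because each group has 1 library and the labels give no replicate numbers. Without replicates or read counts, no difference can be told from variation between cultures. That holds for the larger ones and for those near a threshold, such as those of ITGA1 and ITGB2.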

Other observations

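Several tetraspanins, a family of membrane proteins of which some gather integrins into clusters, also differed between the libraries. Which of those listed bind integrins in these cells was not tested. Of 20 examined, 17 passed the filter on low values, and 8 were called higher and 2 lower in HepG2/metR, against 16.6% and 17.6% of all genes that passed. Their median log2 changes were 0.68 in HepG2/metR and -0.11 with oxamate. The largest changes were in CD81, TSPAN7, CD82 and TSPAN5. CD81 was listed at 0.383 FPKM in parental cells, 141 in HepG2/metR and 99.9 after oxamate, and TSPAN5 at 0.665, 20.2 and 15.3 FPKM. TSPAN7 was at 58.3 FPKM in parental cells and 0.0637 in HepG2/metR, and was listed at 0 with oxamate. CD82, known as a suppressor of metastasis, was at 0.194, 31.6 and 20.3 FPKM. With a change of -0.61 with oxamate, CD82 was the 1 tetraspanin that was at least 2-fold higher in HepG2/metR and at least 1.5-fold lower with oxamate, against 0.958% of all genes. TSPAN12 was the 1 tetraspanin called higher with oxamate, at 2.12 against 0.990 FPKM, with a background of 4.30%.

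Marker genes of other cell types were also read. All 5 platelet markers were at 0.0382 FPKM or less, and of 6 endothelial markers 5 were under 1 FPKM in each library. The 6 fibroblast markers summed to 5.07 FPKM in parental cells, 60.8 in HepG2/metR and 63.4 after oxamate, mostly from THY1 at 53.3 and 48.5 FPKM in the latter libraries, while COL1A2 stayed at 0.141 FPKM or less. LUM, at 0.172, 3.25 and 6.69 FPKM, was called higher in both comparisons, and PDGFRB, at 3.43, 3.66 and 7.26 FPKM, was called higher with oxamate. Among 5 epithelial markers, EPCAM was at 102 FPKM in parental cells and 0.0900 in HepG2/metR, CDH1 at 5.92 and 0.0365 FPKM, and KRT18 at 605 and 787 FPKM. Their part in the integrin and laminin differences was not tested.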
